A study of Pinus armandii with 6 samples.

Results

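The seed storage globulins of Pinus armandii, the Chinese white pine, were followed by RNA sequencing of the kernels of seeds collected in late September or in late August. The set holds 7 unigenes (assembled transcripts) of the 65117 in the deposited table, chosen by their annotated names as vicilins, pine globulin-1, a cupin and legumin-like storage proteins. Each month has 3 libraries, labelled biological replicates, and the month is the one difference the labels give between the groups. The labels name no tree, cone or pool behind a library, and each p-value below is therefore set against a library-to-library spread that may be partly technical. A kernel holds the embryo within the megagametophyte, a haploid storage tissue, and the labels do not part the tissues. In such whole-kernel libraries, a change in how many cells of a type are present and a change in RNA per cell cannot be told apart.

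Conifer seeds store nitrogen as globulins, packed into protein vacuoles of the megagametophyte and embryo and broken down at germination. The vicilins form the 7S class, trimers of subunits that are built from a pair of cupin barrels. The legumins form the 11S class, whose precursor is cut into an acidic and a basic chain held together by a disulfide bond and assembles into hexamers. Both are made on the endoplasmic reticulum, folded there with the help of chaperones, and carried to the vacuole by sorting receptors.

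One name in the set did not match the annotation behind it. Unigene0047907 carries the symbol VCL1 and a best hit to a protein of unknown function from Taxus. In Arabidopsis, VCL1 is VACUOLELESS1, the plant VPS16 protein, and not a vicilin. The deposited gene ontology terms of Unigene0047907 include the HOPS complex, the CORVET complex and protein targeting to the vacuole, which are terms of vesicle tethering at the vacuole. It was therefore described apart from the other 6, which are called storage protein unigenes here. The class of globulin-1 (Unigene0000942) was also not settled by the annotation. Its best hit is named pine globulin-1 without a class, and its symbol COS-1 is that of cocosin, an 11S globulin of coconut. It was given on its own, and each class sum was made with and without it.

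Of the 6 storage protein unigenes, 5 were higher in September and 1, a legumin of very low level, did not pass the test. Together they made up 2121, 2328 and 2611 FPKM in the September libraries, against 1524, 1404 and 1757 FPKM in the August libraries. FPKM are counts scaled to the length of the unigene and to the total of the library, as the authors deposited them, and they allow levels of different unigenes to be compared. The groups did not overlap, and the mean sum was 1.51-fold higher in September. Calls were made with edgeR's quasi-likelihood test at a Benjamini-Hochberg adjusted p under 0.05 over all 23216 unigenes that passed a filter on low counts, and all 7 unigenes of the set passed that filter. Changes between the months were common: 35.4% of all tested unigenes were called higher in September and 32.5% lower, and 67.8% were called in either direction. The median log2 fold change was 0.78 over the 7 unigenes, VCL1 among them, and 0.03 over all tested unigenes. The set was chosen with earlier results of these data known, so its counts and median are given as a description.

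**Figure D1:**
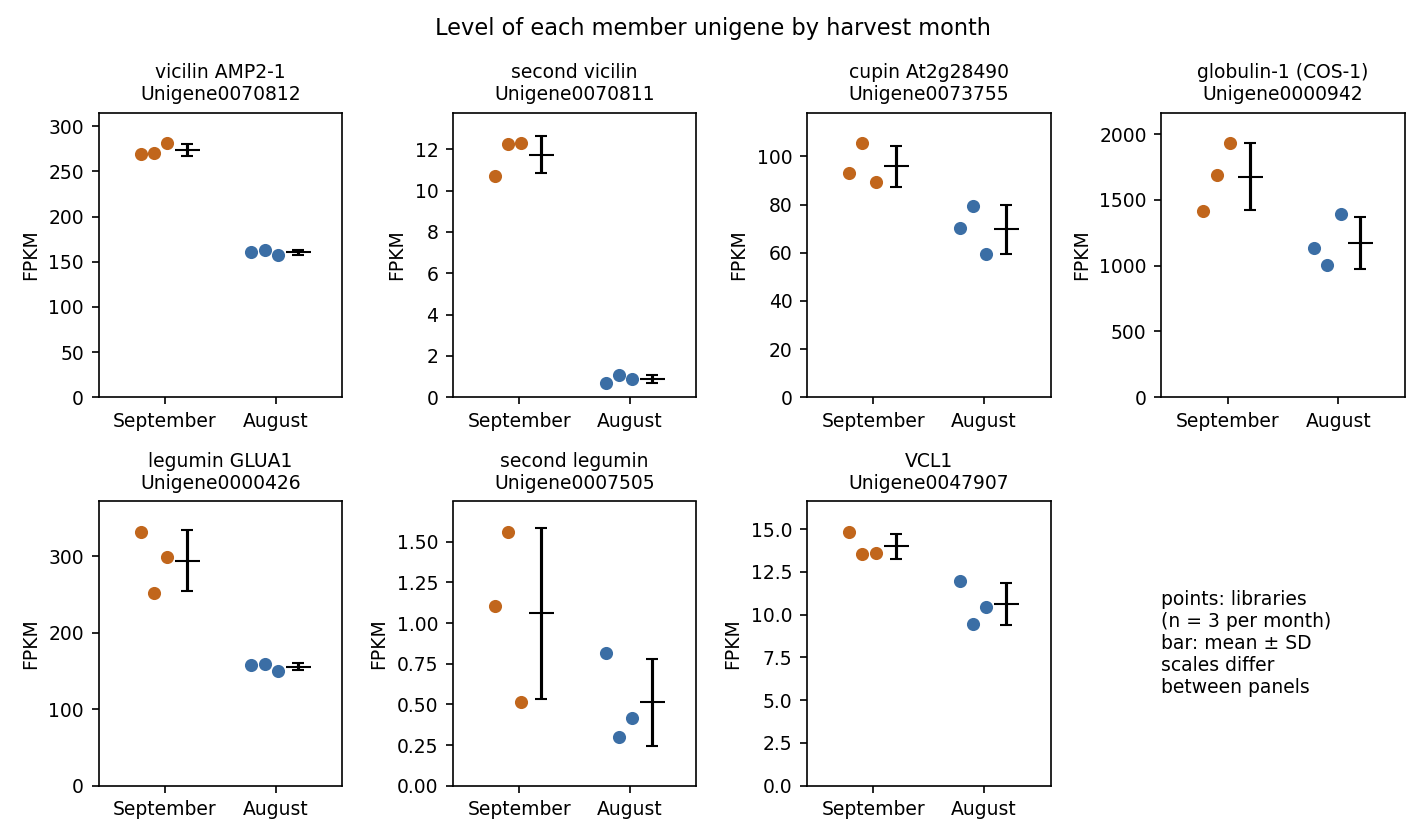
FPKM of each of the 7 unigenes in every library, with September on the left of each panel and August on the right. Points are libraries, and the bar beside them is the mean ± SD over 3 libraries. In 6 panels every September point lies above every August point. In the panel of the second legumin the months overlap. The vertical scales differ between panels.

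Globulin-1 was the most abundant of the set in all 6 libraries. It had 1415, 1686 and 1929 FPKM in the September libraries, against 1133, 1002 and 1389 FPKM in the August libraries. The lowest September library lay just above the highest August library. Its log2 fold change was 0.52 (SE 0.129, adjusted p = 0.00495 by edgeR), or 1.43-fold, with a 95% interval of 1.17-fold to 1.75-fold. By mean FPKM it ranked 11 among all unigenes in September and 16 in August. It alone took 0.273% to 0.371% of the counts of a September library and 0.193% to 0.268% of an August library. Its log2 fold change was 0.40 without the second August library, which had the lowest level (adjusted p = 0.0287 by edgeR), and 0.63 without the first September library (adjusted p = 0.00157 by edgeR).

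The main vicilin (AMP2-1, Unigene0070812) was the most even of the set between libraries. Its best hit is the 7S allergen Pin k 2 of Korean pine nuts, and its symbol is that of a macadamia vicilin whose N-terminal part gives rise to antimicrobial peptides. It had 269, 270 and 281 FPKM in the September libraries, against 161, 163 and 157 FPKM in the August libraries. The gap between the months was many times the spread within either of them, with a coefficient of variation of 2.38% in September and 1.84% in August. The log2 fold change was 0.78 (SE 0.0522, adjusted p = 1.02e-06 by edgeR).

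A second unigene with the same best hit (Unigene0070811) was present at a much lower level and changed most. It had 10.7, 12.2 and 12.3 FPKM in the September libraries, against 0.696, 1.08 and 0.876 FPKM in the August libraries. In counts this was 495, 663 and 492 in September and 35, 46 and 43 in August. The log2 fold change was 3.74 (SE 0.158, adjusted p = 7.87e-08 by edgeR), or 13.4-fold with a 95% interval of 10.5-fold to 17.1-fold, and 5.45% of all tested unigenes had a larger one. The ratio of the main to the second vicilin was 22.1 to 25.2 in FPKM in the September libraries and 150 to 232 in the August libraries, so the pair changed unequally (exact two-sided permutation p = 0.1, the smallest that 3 against 3 libraries allow).

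The pair shares a best hit, and the counting may have split reads among similar copies, so each member of the pair is less certain than their sum. With the counts of both summed, the log2 fold change was 0.85 (SE 0.0524, adjusted p = 5.7e-07 by edgeR). The second unigene made up 3.82%, 4.33% and 4.19% of the FPKM of the pair in the September libraries, against 0.43%, 0.662% and 0.555% in the August libraries. The length that the deposited FPKM imply was 3119 bases for the second unigene and 2060 bases for the main one.

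The cupin (At2g28490, Unigene0073755) belongs to the superfamily that both globulin classes share, and the Arabidopsis gene of that name encodes a vicilin-like seed protein. It had 93.1, 105 and 89.2 FPKM in the September libraries, against 70.3, 79.4 and 59.3 FPKM in the August libraries. All September libraries lay above all August libraries, by less than in the vicilins. The log2 fold change was 0.47 (SE 0.103, adjusted p = 0.00247 by edgeR), or 1.38-fold with a 95% interval of 1.18-fold to 1.62-fold. Without the third August library, the lowest, it was 0.33 (adjusted p = 0.00863 by edgeR).

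The legumin GLUA1 (Unigene0000426), whose best hit is a legumin-like protein of Douglas fir and whose symbol is that of a rice glutelin, is an 11S protein. It had 332, 252 and 299 FPKM in the September libraries, against 158, 159 and 150 FPKM in the August libraries. The August libraries lay close together and the September libraries were spread over a wider range, with a coefficient of variation of 13.6% in September and 3.17% in August. The log2 fold change was 0.92 (SE 0.0933, adjusted p = 1.5e-05 by edgeR), or 1.90-fold with a 95% interval of 1.64-fold to 2.19-fold.

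The other legumin unigene (Unigene0007505) has the same best hit and no symbol. It had 1.11, 1.56 and 0.512 FPKM in the September libraries, against 0.815, 0.302 and 0.418 FPKM in the August libraries. Its counts were 20, 33 and 8 in September and 16, 5 and 8 in August, and the months overlapped. The log2 fold change was 1.05 with an SE of 0.508 (adjusted p = 0.0903 by edgeR), and the 95% interval ran from 0.945-fold, a slightly lower September level, to 4.54-fold. The libraries of a month differed widely, with counts of 8 to 33 in September and 5 to 16 in August. The pooled counts, scaled to the library totals, had a ratio of 2.12 with a 95% exact interval of 1.34 to 3.43, which covers counting error only and not the spread between libraries. Leaving out the first August library or the third September library brought it past the threshold, at a log2 fold change of 1.53 (adjusted p = 0.0493 by edgeR) and of 1.37 (adjusted p = 0.0418 by edgeR). It added 0.171% to 0.615% of the FPKM of the legumin pair in any library, so the sum of the class was set by GLUA1.

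**Figure D2:**
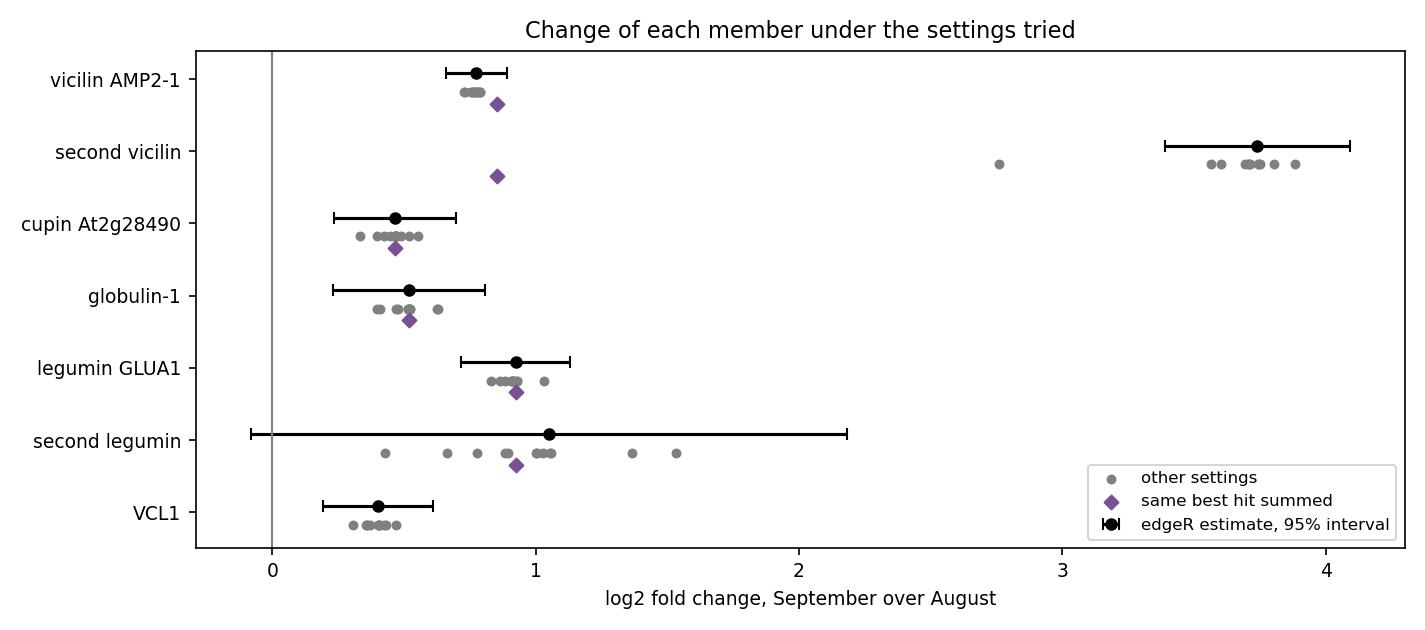
Log2 fold change of each unigene, September over August, from edgeR with its 95% interval (black), under the other settings tried (grey, including each library left out in turn) and with unigenes of the same best hit summed (diamonds). The second vicilin stands at 3.74 alone and at 0.85 when summed with the main vicilin, and the interval of the second legumin crosses 0.

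The order of levels was nearly the same in both months. In September it ran from globulin-1 at 1677 ± 257 FPKM (SD, n = 3 here and for the other means) to GLUA1 at 294 ± 40.1 FPKM and the main vicilin at 274 ± 6.50 FPKM, whose ranges overlapped. The cupin followed at 95.9 ± 8.48 FPKM, the second vicilin at 11.7 ± 0.903 FPKM and the second legumin at 1.06 ± 0.526 FPKM, each below the one before it in every library. In August globulin-1 stood at 1175 ± 197 FPKM, above the main vicilin at 160 ± 2.96 FPKM and GLUA1 at 156 ± 4.93 FPKM, whose ranges overlapped too. The cupin had 69.7 ± 10.1 FPKM, and the second vicilin at 0.885 ± 0.194 FPKM and the second legumin at 0.512 ± 0.269 FPKM overlapped at the low end.

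Summed by class, both classes were higher in September. The 7S unigenes without globulin-1, which are the vicilin pair and the cupin, summed to 373, 388 and 382.5 FPKM in the September libraries, against 232, 243 and 217 FPKM in the August libraries, a 1.65-fold higher mean. The 11S unigenes without globulin-1 summed to 333, 254 and 300 FPKM in the September libraries, against 159.1, 159.1 and 150.4 FPKM in the August libraries, a 1.89-fold higher mean. Neither class overlapped between months. With globulin-1 added to either class, that class was set by it: the mean was 1.46-fold higher in September for 7S and 1.48-fold higher for 11S.

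The balance of the classes overlapped between the months. With globulin-1 left out, 7S made up 52.8%, 60.5% and 56.1% of the summed FPKM in the September libraries, against 59.4%, 60.5% and 59.1% in the August libraries. The second September library was level with the August libraries, and the other September libraries were lower. With globulin-1 counted as 7S the share averaged 87.3% ± 2.62 in September and 89.9% ± 1.41 in August, and with globulin-1 counted as 11S it averaged 16.3% ± 1.502 in September and 14.97% ± 2.49 in August (SD, n = 3 each). Globulin-1 itself made up 66.7%, 72.4% and 73.9% of the 6 unigenes in the September libraries, against 74.3%, 71.4% and 79.1% in the August libraries. The first September library had both the lowest globulin-1 of its month and the highest GLUA1, with 4.27 FPKM of globulin-1 for each FPKM of GLUA1, against 6.69 and 6.44 in the other September libraries and 7.16, 6.31 and 9.26 in the August libraries. Of the 10 ratios between the 5 more abundant storage protein unigenes, 4 did not overlap between months. These 4 are all the ratios that involve the second vicilin, so they restate its change and are not separate results.

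**Figure D3:**
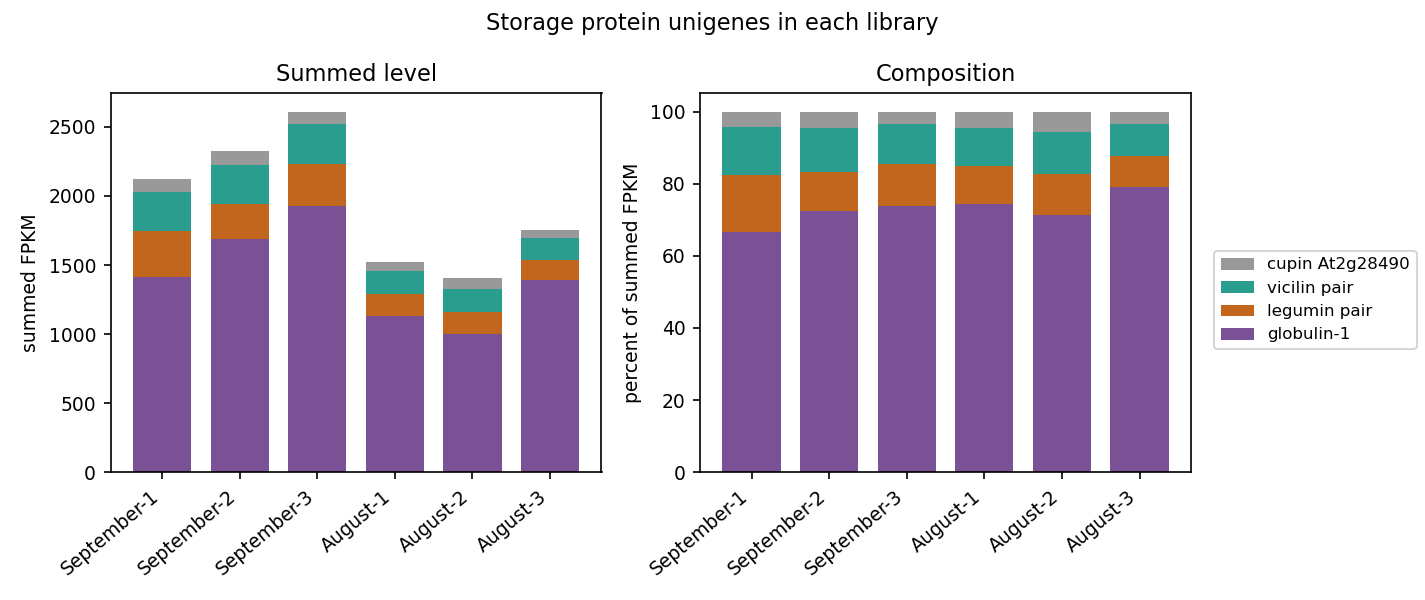
Summed FPKM of the 6 storage protein unigenes in each library (left) and the percent that each part contributes (right), with the September libraries left of the August libraries in both panels. Globulin-1 makes up 66.7% to 79.1% in every library, while the summed level is 2121 to 2611 FPKM in September and 1404 to 1757 FPKM in August.

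VCL1 (Unigene0047907), the vesicle tethering protein, had 14.8, 13.5 and 13.6 FPKM in the September libraries, against 11.95, 9.47 and 10.4 FPKM in the August libraries. The months did not overlap. Its log2 fold change was 0.40 (SE 0.0936, adjusted p = 0.00342 by edgeR). It lay between the cupin and the second vicilin in level, and its implied length of 4128 bases was the longest of the set. The other subunits that carry a symbol and the same complex terms, a list made after the data were seen, moved in both directions: of 7 tested, 1 was higher, 2 were lower and 4 did not pass. The shares over all tested unigenes were 35.4% higher and 32.5% lower. VPS18, the 1 that was higher, averaged 35.9 ± 2.47 FPKM in September and 23.7 ± 2.74 FPKM in August (SD, n = 3 each; log2 fold change 0.60, adjusted p = 0.000204 by edgeR). VPS41, which belongs to HOPS, averaged 6.99 ± 0.579 FPKM in September and 11.5 ± 0.692 FPKM in August (log2 fold change -0.72, adjusted p = 7.06e-05 by edgeR). VPS39, the most abundant of them, averaged 39.98 ± 1.48 FPKM in September and 44.0 ± 2.41 FPKM in August (adjusted p = 0.0702 by edgeR). Without the second August library 4 of the 7 were called lower.

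Apart from that of the second vicilin, changes of the size seen in the set were common in these kernels. In 6 of the 7 unigenes all September libraries lay above all August libraries, as in 37.8% of all tested unigenes, and 72.9% of all tested unigenes did not overlap in either direction. A larger log2 fold change than that of the main vicilin was found in 28.5% of tested unigenes, and than that of globulin-1 in 33.97%. For GLUA1 the share was 26.1%, for the cupin 35.4% and for the second vicilin 5.45%.

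Other annotated storage proteins were few outside the albumins. Of 5 further unigenes matched as storage globulins, 1 passed the filter on low counts. This was a vicilin-like seed storage protein of the At2g18540 kind (Unigene0009117), and it was lower: 5.59 ± 0.138 FPKM in September and 9.65 ± 2.21 FPKM in August (SD, n = 3 each; log2 fold change -0.79, adjusted p = 0.00267 by edgeR). The 2S albumins, the small sulfur-rich storage proteins of the same vacuoles, moved in both directions. Of 9 matched unigenes 7 were higher and 2 were lower, and their median log2 fold change was 0.88. Over all tested unigenes 35.4% were higher and 32.5% lower. The most abundant albumin (PINP1, Unigene0011419) was among those lower, with 1035, 1103 and 1222 FPKM in the September libraries and 2941, 2515 and 2554 FPKM in the August libraries (log2 fold change -1.25, adjusted p = 9.7e-07 by edgeR). A minor albumin (PINP1, Unigene0052158) had the largest change of the list, with 68.5 ± 13.3 FPKM in September and 8.43 ± 1.95 FPKM in August (log2 fold change 3.03, adjusted p = 1.2e-06 by edgeR). The sum of the albumins was 2898 ± 253 FPKM in September and 3784 ± 203 FPKM in August (SD, n = 3 each). This lower September sum rests on Unigene0011419, with a mean of 1120 FPKM in September and 2670 FPKM in August. The 6 storage globulin unigenes summed to 2354 ± 246 FPKM in September and 1562 ± 179 FPKM in August (SD, n = 3 each).

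Genes that fold and sort storage proteins moved both ways, as did the tested unigenes as a whole. Of 52 matched unigenes 34 were tested, 11 of them higher, 12 lower and 11 not past the threshold. Their median log2 fold change was 0.01. Over all tested unigenes 35.4% were higher and 32.5% lower, and the counts of the list lay near these shares. Folding helpers of the endoplasmic reticulum were among the higher ones. The chaperone BiP (BIP4, Unigene0016360), which holds nascent chains in the lumen, had 448.5, 525 and 442 FPKM in the September libraries, against 98.1, 106 and 109 FPKM in the August libraries. It had the largest change of the list among called unigenes with a mean of 5 CPM or more (adjusted p = 2.71e-08 by edgeR; log2 fold change 2.18, SE 0.0769). CPM are counts scaled to the library total alone. Calnexin (CNX1, Unigene0001879), a lectin chaperone of glycoproteins such as vicilin, had the highest mean FPKM over all 6 libraries, below BiP in September and above it in August, at 374 ± 20.4 FPKM in September and 223 ± 25.5 FPKM in August (log2 fold change 0.75, adjusted p = 2.27e-05 by edgeR). No unigene matched the name of a vacuolar processing enzyme, the protease that cuts legumin precursors.

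Receptors that carry storage proteins towards the vacuole were of the VSR and BP80 kind and of the RMR family. Of the 3 tested unigenes of the VSR and BP80 kind, all were lower, as were 32.5% of all tested unigenes. VSR6 (Unigene0069932) averaged 19.9 ± 0.362 FPKM in September and 67.8 ± 1.64 FPKM in August (SD, n = 3 each; log2 fold change -1.76, adjusted p = 1.75e-08 by edgeR), BP80 (Unigene0066434) had a log2 fold change of -0.57 and VSR4 (Unigene0072320) of -0.24. Of the 3 tested receptors of the RMR family, RMR2 (Unigene0009848) was higher with a log2 fold change of 0.49, another RMR2 (Unigene0041747) was lower with -1.03, and RMR4 (Unigene0043018) did not pass, at 0.35. AERO1 (Unigene0020074), the oxidoreductin that feeds disulfide formation, was lower as well at 26.6 ± 1.78 FPKM in September and 56.8 ± 3.45 FPKM in August (log2 fold change -1.09, adjusted p = 8.19e-07 by edgeR). Disulfide isomerases went both ways, among them PDIL2-3 (Unigene0069174), higher with a log2 fold change of 0.97, and PDIL2-1 (Unigene0023798), lower with -0.36. These 9 unigenes were picked from the list for their roles after their values were seen. A further 4 of the 12 lower unigenes (Unigene0004767, Unigene0024972, Unigene0030754 and Unigene0070119) carry animal-style symbols such as P4hb and Calr, have plant best hits (Clitoria or Rhodamnia) and had a mean of at most 0.208 FPKM in September, against 1.38 to 2.97 FPKM in August. Unigenes whose best hit is no plant moved alongside, with a summed level of 60.2 to 75.1 FPKM in September and 111 to 228 FPKM in August, and their part in these 4 values was not tested. Unigenes of the same kind were also among the higher ones: PDIA3 (Unigene0070120), with the best hit of Unigene0070119, averaged 1.03 FPKM in September and 0.353 FPKM in August, and CANX (Unigene0072178) 1.19 FPKM in September and 0.613 FPKM in August. These 6 were singled out after their values were seen.

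Seed regulators were matched as the ABI3, LEC1 and bZIP kinds, which activate storage protein genes in Arabidopsis, and as the chromatin-remodeling factor PICKLE. Of 12 matched unigenes 9 were tested, 3 were higher, 3 lower and 3 did not pass (median log2 fold change -0.22). These counts lay near the shares over all tested unigenes, 35.4% higher and 32.5% lower. The higher ones were all of the ABI3 and LEC1 kinds. The lower ones were a bZIP factor, DPBF3, and the PICKLE unigenes (Unigene0042189, log2 fold change -0.36, and Unigene0068990, -0.22). The PICKLE unigenes were named after their values were seen. VP1 (Unigene0069436), a conifer protein of the ABI3 kind, had 59.8, 61.8 and 55.4 FPKM in the September libraries, against 31.6, 31.1 and 32.7 FPKM in the August libraries (log2 fold change 0.90, adjusted p = 8.11e-07 by edgeR). A further unigene with the symbol ABI3 (Unigene0018349) did not pass, at 1.21 FPKM in September and 1.68 FPKM in August (log2 fold change -0.46). Both were named for their role after their values were seen. NFYB6 (Unigene0072012), of the LEC1 kind, averaged 16.2 ± 1.13 FPKM in September and 8.68 ± 2.71 FPKM in August (SD, n = 3 each; log2 fold change 0.91, adjusted p = 0.00308 by edgeR). The most abundant member, the bZIP factor DPBF3 (Unigene0036330), was lower at 79.4 ± 2.44 FPKM in September and 115 ± 5.29 FPKM in August (log2 fold change -0.53, adjusted p = 2.04e-05 by edgeR).

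Proteases of the vacuole and related classes, some of which break storage globulins down, included 41 tested unigenes of 68 matched, 18 higher, 9 lower and 14 not past the threshold. Their median log2 fold change was 0.32. Of all tested unigenes 35.4% were higher and 32.5% lower. The cysteine protease RD21B (Unigene0055540) had the highest mean over all 6 libraries, through its September level, and had 549, 447 and 481 FPKM in the September libraries, against 59.0, 42.3 and 47.3 FPKM in the August libraries (adjusted p = 4.32e-08 by edgeR; log2 fold change 3.32, SE 0.127). In September it exceeded the main vicilin and GLUA1 in every library, whereas in August it lay below both in every library. The aspartic protease APA2 (Unigene0056398), at 119 FPKM in September and 214 FPKM in August, was the highest of the list in August and was named after its value was seen. The aspartic protease APF2 (Unigene0027180) had the largest change among called unigenes with a mean of 5 CPM or more, with 198, 263 and 281 counts in the September libraries and 3, 3 and 2 counts in the August libraries (adjusted p = 1.91e-07 by edgeR).

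**Figure D4:**
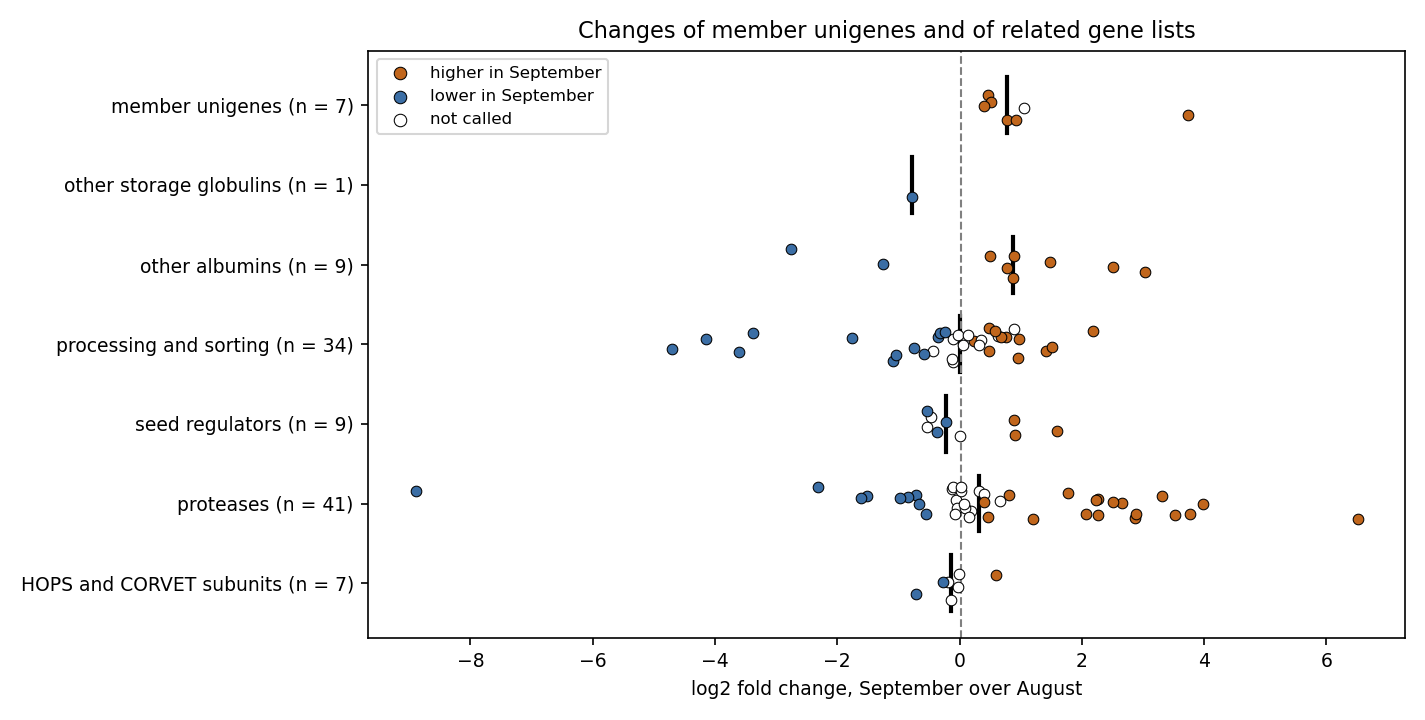
Log2 fold change, September over August, of each tested unigene in the set and in the related gene lists. Orange points were called higher, blue points lower and white points did not pass; black ticks are list medians and the dashed line is the median of all tested unigenes, 0.03. The 7 points of the set lie to the right of 0, with the second legumin not called. The 1 tested unigene of the other storage globulins lies at -0.79. The lists of albumins, processing and sorting genes, regulators and proteases hold points on both sides.

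For each of the 6 more abundant unigenes of the set, the nearest profiles were sought among 6677 other tested unigenes with a name and a mean of 20 CPM or more. Nearness was the root mean square difference between log2(CPM + 1) values over the 6 libraries, each centred on its own mean, and is given as a description. Nearest to the main vicilin were GSA (Unigene0062096, difference 0.034) and RAP2-12 (Unigene0023553, 0.040). Nearest to globulin-1 were MORC2 (Unigene0074916, 0.098) and DCL3A (Unigene0000539, 0.11), and to GLUA1 MKK9 (Unigene0017680, 0.067) and MYB44 (Unigene0052026, 0.070). The cupin lay nearest to RIC1 (Unigene0033772, 0.066) and UCRQ-1 (Unigene0017985, 0.069). The second vicilin lay nearest to a retrotransposon-like unigene (TY3B-G, Unigene0000140, 0.14) and to MIOX5 (Unigene0026372, 0.18), the widest differences of the 6. VCL1 lay nearest to BASS2 (Unigene0074263, 0.021) and DRB3 (Unigene0026370, 0.035). Members of the set were not among the candidates, and neither was the further vicilin-like unigene (Unigene0009117), whose mean lay below 20 CPM. Other globulins could therefore not appear as neighbours. None of these neighbours was an albumin.

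Library totals were 12849649 to 17379628 counts. The Pearson correlation of log2(CPM + 1) across tested unigenes, which are not independent replicates, was 0.987 to 0.992 for libraries of the same month and 0.886 to 0.897 for libraries of different months, and counts of the same month differed by more than sampling noise in every pair. The tissue label was checked with marker lists. Seed kernel markers included oleosins, late embryogenesis proteins and unigenes with a best hit named 2S albumin. They summed to 2483 to 2859 FPKM in the September libraries and 3519 to 3929 FPKM in the August libraries. They cannot hold all 9 albumins above, whose sum averaged 2898 FPKM in September. Green tissue markers summed to 56.1 to 72.6 FPKM in September and 45.6 to 71.2 FPKM in August. Markers of a lignified coat summed to 519.5 to 552 FPKM in September and 449.5 to 510.5 FPKM in August, and their part in the results was not tested.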

How the data were processed

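Seed kernels from 3 September and 3 August libraries were compared. The submitters' processing notes name fastp, a read trimmer, and RSEM, a quantifier, without versions. How unigenes were assembled and annotated, and whether strand was used, is not given in the sources used here. Per the file headers, the authors deposited RSEM's estimated counts and FPKM for each unigene. Counts were rounded to whole numbers, which altered 8 of 390702 values. Lengths were derived from the ratio of count to FPKM.

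Unigenes were tested with edgeR 4.0.16 in R 4.3.3: filterByExpr (minimum count 10, minimum total 15), TMM factors (0.993 to 1.01), the quasi-likelihood test and Benjamini-Hochberg adjustment at 0.05. The code was tested on simulated data. Class sums have no test. Alternatives used DESeq2 1.42.0 and limma 3.58.1.

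The members and lists were chosen with earlier results of these data known. Lists are text patterns on best hit and symbol; 7 matches were removed on reading their annotation. The class of globulin-1 was set as 7S in the plan and given apart after its symbol was seen. VCL1 was taken out of the 7S sum for its gene ontology terms. Named genes are all members, the most abundant and the most changed called unigene of each list (mean of 5 CPM or more) and the nearest profiles. Genes named otherwise are marked. No genome was used, so positions and sequences are not given.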

Additional observations from a re-analysis of the deposited data

How the results depend on the processing

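The 6 calls in the set (main and second vicilin, cupin, globulin-1, GLUA1 and VCL1) kept their direction and their side of the threshold under every setting tried: RLE size factors, DESeq2, no filter, limma on log2(FPKM + 1) and log2(FPKM + 0.1), each library left out, the replicate block and same-hit sums (the last not for VCL1, which shares its hit with no unigene). For the second vicilin the same-hit sum, at 0.85, was carried by the main vicilin and does not check its own change. For the cupin, globulin-1 and GLUA1 the unigenes added had so few counts that the same-hit sum could hardly move the call. The second legumin passed without the first August library or the third September library, its log2 fold change ranging over 0.66 to 1.53 with each library left out, and when 3 unigenes of its best hit were summed (0.92, carried by GLUA1). The correlation of deviations from the month means was 0.03 to 0.0924 for libraries of the same replicate number and -0.0862 to 0.0426 for others. The ranges overlapped, and so few pairs cannot settle whether the numbers mark a pairing. With the replicate block 8027 unigenes were higher and 7401 lower, against 8209 and 7541 without it, and 6 members were higher in both fits.

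The share of 7S depends on the unit and on the class of globulin-1. On CPM with globulin-1 as 7S it was 91.4% in September and 93.2% in August, and on FPKM 87.3% in September and 89.9% in August. On CPM it was 69.7% in September and 72.5% in August without globulin-1, and 19.7% in September and 18.1% in August with globulin-1 as 11S. The mean log2 ratio of the 11S sum was 0.92, and 0.56 with globulin-1 in it. Matching descriptions alone left 4 higher and 4 lower of 10 processing and sorting genes, 3 higher and 2 lower of 8 proteases, 1 higher and 2 lower of 3 regulators, and 7 higher and 1 lower of 8 albumins. The second legumin rests on 61 counts in September and 29 in August, and its call turns on the spread between libraries. The split between same-hit unigenes cannot be checked without their sequences.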

Other observations

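A unigene outside the set and the lists, singled out after its counts were seen, has a 12S seed storage globulin of rose as its best hit (Unigene0024856). It had 0 counts in every September library, against 150, 146 and 0 counts in the August libraries, so the August libraries differed among themselves. Unigenes outside the set that share a best hit with a member were near the limit of detection. A unigene with the best hit of the cupin (Unigene0013475) had 0 counts in every September library and 1, 4 and 4 in August. A further legumin unigene (Unigene0013719) had 3, 1 and 0 counts in September and 0, 1 and 1 in August, and a further globulin-1 unigene (Unigene0026037) had 2, 1 and 0 counts in September and 0, 1 and 0 in August.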
